A study of Drosophila melanogaster with 4 samples.

Results

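The genes described here encode subunits of the vacuolar proton ATPase (V-ATPase) of Drosophila melanogaster, and they were taken as every gene whose symbol in the deposited data begins with Vha. This gave 32 genes of 14029 in all. By general knowledge of fly tissues, 16 of them were put in a widespread group, 6 were called testis-restricted, and 10 were left without a tissue group. RNA was sequenced from whole third-instar larvae raised at 25 °C, with 2 libraries of pooled larvae per genotype. The wild type larvae were Canton S males, genotype +/+. The Inr-a duplication larvae, genotype pcf11/+, carried an extra copy of Inr-a (Pcf11, a cleavage and termination factor of messenger RNA) and were the progeny without green fluorescence of w[a]; Pcf11Dup/CyO GFP males and Canton S females. They are labelled male, and the study's methods state the sexing of the wild type larvae only. The father's strain entered the cross together with the duplication, so the effects of the extra Inr-a copy and of that background cannot be told apart.

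The V-ATPase is a rotary proton pump in the membranes of lysosomes, endosomes, Golgi and secretory vesicles, and in the plasma membrane of ion-transporting epithelia such as the Malpighian tubule. Its V1 sector, made of the subunits A to H, lies in the cytosol and hydrolyses ATP, and its membrane sector V0, made of a, c, c″, d, e and accessory proteins, carries protons across. Flies encode several subunits in small families of paralogs, some of which are used mainly in the testis. In cells the pump acidifies lysosomes, energises transport in gut and tubule, and takes part in the sensing of amino acids by the kinase complex TORC1.

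The deposited values were the mean CPM (read counts scaled to a fixed library total) of each genotype, from which the whole counts of single libraries were recovered. The libraries held between 11304266 and 15423445 counts, and A names the deeper library of a genotype, because nothing ties the study's own replicate numbers to them. Pcf11 itself had 60.4 and 58.0 CPM in wild type and 83.3 and 95 CPM in the Inr-a duplication (ratio 1.51, log2 fold change 0.62, SE 0.26, limma adjusted p = 0.180). When the trend of each library with transcript length was subtracted, the log2 fold change of Pcf11 was 0.21 (limma adjusted p = 0.674). A set of 128 abundant genes, taking 39.0% and 39.3% of the CPM of the genotypes, had no recoverable library values. None of the V-ATPase genes was among them. Of all genes tested (11540), 257 (2.23%) were called at an adjusted p under 0.05, of which 199 (1.72%) had higher and 58 (0.503%) lower values in the Inr-a duplication. The median log2 fold change was 0.02. With 2 libraries per genotype the p-values measure the spread between these pools, and an exact permutation test of a single value cannot give a two-sided p below 0.333.

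All 32 V-ATPase genes passed the filter on low counts, and none was at 0 in any library. They did not move as a block. In CPM, 12 genes had higher values in both Inr-a duplication libraries than in either wild type library (22.9% of all genes tested did so), and 13 genes had lower values in both (30.3% of all genes tested). The other 7 overlapped. After scaling by TMM (trimmed mean of M values, which sets libraries level by their middle genes) these numbers were 12 and 12, against 27% and 26.7% of all genes tested. At an adjusted p under 0.05, 1 member was called higher and 0 lower, against 1.72% and 0.503% of all genes tested. At an unadjusted p under 0.05 the numbers were 7 and 6, against 12.2% and 8.61% of all genes tested (20.8% in either direction). The log2 fold change was above 0 for 15 members and below 0 for 17, against 51.5% and 48.5% of all genes tested, and the median of the 32 genes was −0.03.

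The tissue groups, which were chosen with earlier results of these data known, lay on opposite sides of this median. Of the 16 widespread genes, 10 were higher in both Inr-a duplication libraries than in either of wild type, and 2 were lower in both (1 after TMM scaling). Over all genes tested, 22.9% were higher in both and 30.3% lower in both (27% and 26.7% after TMM scaling). The median log2 fold change of the widespread genes was 0.46, with a range from −0.28 to 0.94. Of the 6 testis-restricted genes, 5 were lower in both Inr-a duplication libraries and none was higher in both (30.3% and 22.9% of all genes tested). The median log2 fold change of these 6 genes was −0.64, with a range from −0.93 to 0.03. None of these 22 genes passed the adjusted threshold (2.23% of all genes tested did). An unadjusted p under 0.05 was found for 6 widespread genes, each with a higher value in the Inr-a duplication, and for 4 testis-restricted genes, each with a lower one. Of all genes tested, 12.2% were higher and 8.61% lower at this unadjusted threshold. Whole larvae were used, so fewer cells of a type and less RNA per cell cannot be told apart.

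**Figure D1:**
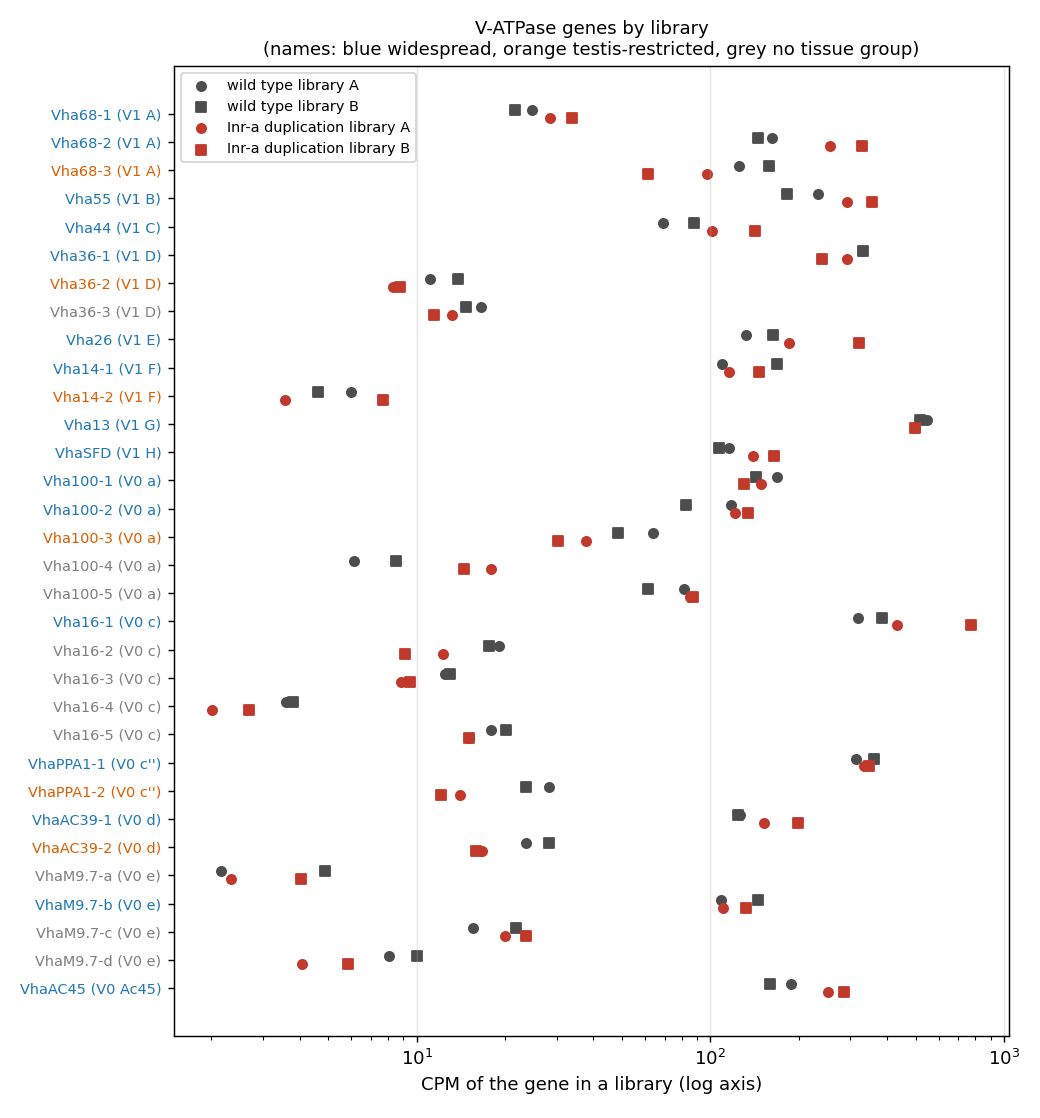
CPM of each V-ATPase gene in the 4 libraries, on a log axis, with wild type in grey, Inr-a duplication in red, library A as circles and library B as squares; gene names are coloured by tissue group. The red symbols of Vha68-2 lie at 256 and 327 CPM to the right of the grey ones at 162 and 145 CPM, and those of its neighbour Vha68-3 lie at 97.4 and 61.6 CPM to the left of 126 and 158 CPM.

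The A subunit, which binds and hydrolyses ATP, is encoded by 3 genes that lie close together on chromosome 2L (BDGP6.54 annotation). Vha68-2 (FBgn0263598) lies at 12974322 to 12978607 on the plus strand. Vha68-3 (FBgn0032464) lies at 12978786 to 12981293 on the same strand, with 178 bp between both genes. Vha68-1 (FBgn0265262) lies at 13000770 to 13004107 on the minus strand. Vha68-2, the main A subunit gene outside the testis, had 162 and 145 CPM in wild type and 256 and 327 CPM in the Inr-a duplication. Both Inr-a duplication libraries were thus well above wild type (ratio 1.90, log2 fold change 0.94, SE 0.26, adjusted p = 0.0591), short of the threshold. Vha68-3, the testis-restricted paralog, had 126 and 158 CPM in wild type and 97.4 and 61.6 CPM in the Inr-a duplication, in the opposite order (ratio 0.559, log2 fold change −0.83, SE 0.28, adjusted p = 0.115). Vha68-1 was less abundant (8.9 CPM per kb of transcript in wild type, against 61.8 for Vha68-2), with 24.8, 21.7, 28.5 and 33.7 CPM in the same order of libraries, a ratio of 1.34 (adjusted p = 0.338). In wild type Vha68-3 gave 44.5% of the CPM of the 3 genes and Vha68-2 gave 48.2%. In the Inr-a duplication these shares were 19.7% and 72.5%.

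The B subunit, the other nucleotide-binding subunit of the V1 head, is encoded by Vha55 alone. Vha55 had 233 and 182 CPM in wild type and 291 and 355 CPM in the Inr-a duplication, without overlap (ratio 1.55, log2 fold change 0.67, SE 0.27, adjusted p = 0.168). The stalk that holds the head in place contains the E and G subunits. Vha26, the E subunit gene, had 132 and 163 CPM in wild type and 185 and 321 CPM in the Inr-a duplication (ratio 1.71, log2 fold change 0.76, SE 0.28, adjusted p = 0.138). This ratio was carried in large part by library B, since it was 1.25 without that library. Vha13, the G subunit gene, had 547 and 516 CPM in wild type and 498 and 496 CPM in the Inr-a duplication, a log2 fold change of −0.06 (SE 0.28), and the libraries overlapped once they were scaled by TMM. E and G pair in the stalk of the pump, and the ratios of their genes were thus 1.71 and 0.935, or 1.25 and 0.936 without Inr-a duplication library B. With the trend of each library with transcript length subtracted, their log2 fold changes were 0.60 and 0.14. The difference between Vha26 and Vha13 was not tested.

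Subunit C, which ties V1 to V0 and takes part in the reversible assembly of the pump, is encoded by Vha44. This gene had 69.0 and 87.9 CPM in wild type and 101 and 142 CPM in the Inr-a duplication (ratio 1.55, log2 fold change 0.65, SE 0.26, adjusted p = 0.174). VhaSFD encodes subunit H, which restrains ATP hydrolysis in V1 that has come off the membrane, and it had 116, 107, 140 and 165 CPM (ratio 1.37, adjusted p = 0.286). For Vha44 and for VhaSFD the values of both genotypes did not overlap. The genes of the central shaft, D and F, had another order. Vha36-1, the widespread D subunit gene, had 327 and 330 CPM in wild type and 293 and 240 CPM in the Inr-a duplication, lower in both libraries (ratio 0.810, adjusted p = 0.574). Vha14-1, the widespread F subunit gene, had 110 and 169 CPM in wild type and 116 and 147 CPM in the Inr-a duplication, so that both genotypes overlapped. Thus 6 of the 9 widespread V1 genes had a log2 fold change above 0, with a median of 0.48.

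In the V0 sector, Vha16-1 encodes the main c subunit of the rotating proteolipid ring. It had 318 and 384 CPM in wild type and 433 and 772 CPM in the Inr-a duplication (ratio 1.72, log2 fold change 0.76, SE 0.29, adjusted p = 0.156). As for Vha26, library B stood out, and the ratio without it was 1.23. The ring also holds c″, encoded by VhaPPA1-1, whose 315, 361, 335 and 348 CPM overlapped between the genotypes (ratio 1.01, log2 fold change 0.05, SE 0.27). The genes of these ring proteins thus had ratios of 1.72 and 1.01, or 1.23 and 0.991 without Inr-a duplication library B. The difference between these genes was not tested. VhaAC39-1, which encodes the d subunit that joins the ring to the shaft, had 126 and 124 CPM in wild type and 152 and 199 CPM in the Inr-a duplication (ratio 1.4, adjusted p = 0.269). VhaAC45 encodes an accessory protein of V0, and its 188 and 159 CPM in wild type lay below the 252 and 285 CPM of the Inr-a duplication (ratio 1.55, log2 fold change 0.66, SE 0.27, adjusted p = 0.166). VhaM9.7-b, the widespread gene for the small subunit e, had 109, 146, 111 and 132 CPM, which overlapped.

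The a subunit, which forms the proton path beside the ring and directs the pump to its membrane, has 5 genes. Vha100-1 is known for its role in neurons but was put in the widespread group here. It had 169 and 143 CPM in wild type and 149 and 130 CPM in the Inr-a duplication, overlapping (ratio 0.896). Vha100-2 had 117 and 83.0 CPM against 121 and 135 CPM (ratio 1.28, adjusted p = 0.386), and Vha100-5 had 81.4 and 61.2 CPM against 85.6 and 87.0 CPM (ratio 1.21). In both genes the lower value of the Inr-a duplication lay only a little above the higher value of wild type. Over the 7 widespread V0 genes the median log2 fold change was 0.40, and 5 were above 0. The summed CPM of all 16 widespread genes was 3064 and 3123 in wild type and 3462 and 4227 in the Inr-a duplication, with a ratio of 1.24. Of the 10 widespread genes that were higher in both Inr-a duplication libraries, all 10 had their highest value in library B.

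**Figure D2:**
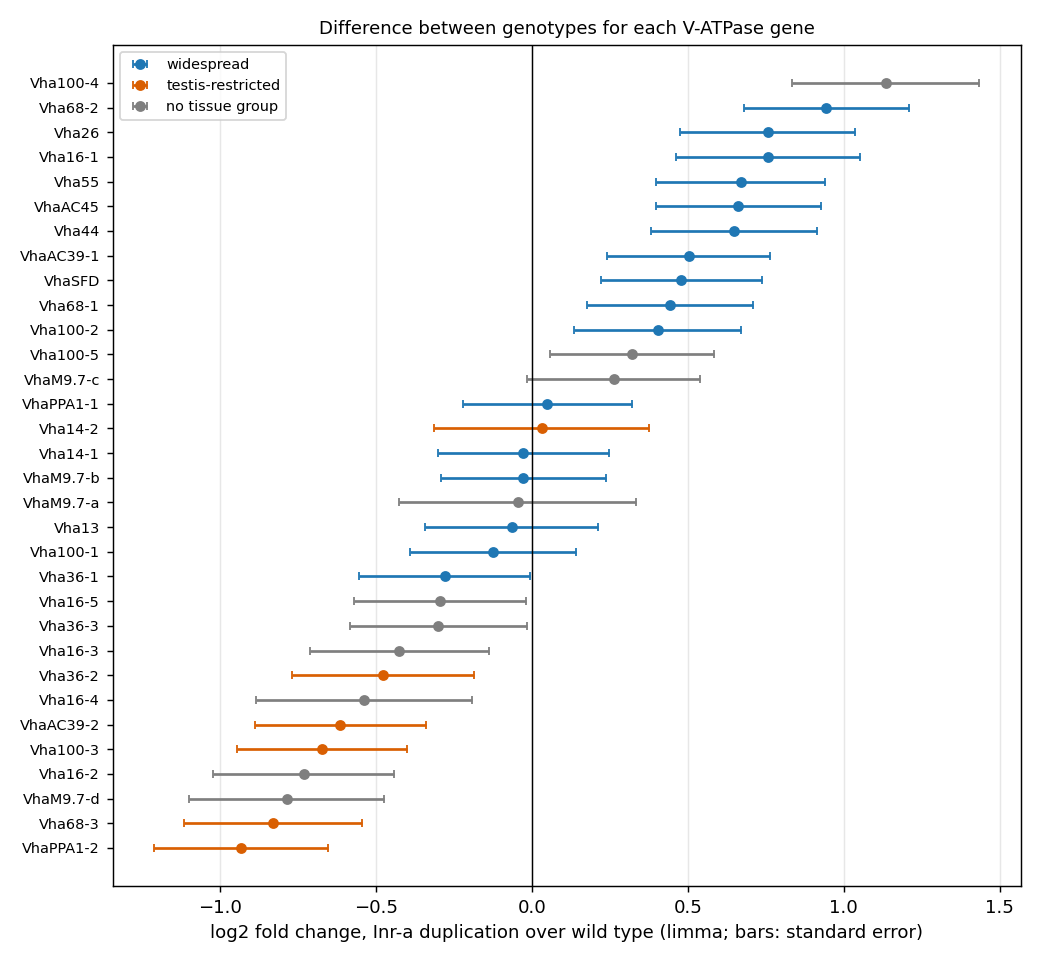
Log2 fold change (Inr-a duplication over wild type, limma) of the 32 V-ATPase genes, in order of size; points are estimates, bars are standard errors, and colour gives the tissue group. The 10 highest widespread genes lie between 0.40 and 0.94, and 5 of the 6 testis-restricted genes lie between −0.93 and −0.48.

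Vha100-4 was the only V-ATPase gene of the 32 that passed the adjusted threshold, against 2.23% of all genes tested. It lies on chromosome 3R at 18386841 to 18389805, on the minus strand and 517 bp from Vha100-2. The recovered counts were 77 and 96 in wild type and 276 and 204 in the Inr-a duplication, or 6.13, 8.49, 17.9 and 14.5 CPM. Both Inr-a duplication libraries were far above wild type (ratio 2.21, log2 fold change 1.13, SE 0.30, limma adjusted p = 0.0469). The gene is an a subunit paralog of low abundance, with the lowest level per kb of the 32 genes in wild type. The call did not hold without wild type library A (adjusted p = 0.126), without Inr-a duplication library A (0.142) or without Inr-a duplication library B (0.0718), and it held without wild type library B (0.0172). Without Inr-a duplication library A, 6 other members were called, 3 higher and 3 lower, in a fit that called 1074 of all genes. These were Vha68-2, Vha26 and Vha16-1, and Vha68-3, Vha100-3 and VhaPPA1-2, with the remaining library assumed to vary like the wild type pair.

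The testis-restricted genes encode alternative A, D, F, a, c″ and d subunits. VhaPPA1-2 (c″) had 28.3 and 23.6 CPM in wild type and 14.0 and 12.1 CPM in the Inr-a duplication, the lowest ratio of the 32 genes (0.503, log2 fold change −0.93, SE 0.28, adjusted p = 0.0740). Vha100-3 (a) had 63.7 and 48.4 CPM against 37.9 and 30.3 CPM (ratio 0.608, adjusted p = 0.169). VhaAC39-2 (d) had 23.6 and 28.1 CPM against 16.7 and 16 CPM (ratio 0.630, adjusted p = 0.206). The values of these genes did not overlap between genotypes. Vha36-2 (D) was also lower in both Inr-a duplication libraries, with 11.1, 13.8, 8.30 and 8.80 CPM (ratio 0.688). Vha14-2 (F) was the exception, with 5.97, 4.60, 3.57 and 7.67 CPM and a wide overlap. Summed over the 6 genes, the CPM was 258 and 277 in wild type and 178 and 136 in the Inr-a duplication, with a ratio of 0.587. Vha68-3 was the most abundant in this sum, and the median ratio of the 6 single genes was 0.619.

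Most, but not all, genes that mark the testis had lower values alongside these paralogs. A list of 23 testis genes, among them the male germline transcription regulator aly, the spermatocyte tubulin betaTub85D and the sperm-tail genes of the Mst84D and Mst87F kind, was measured in full, with none at 0 in any library. Their summed CPM was 2142 and 2285 in wild type and 1505 and 1347 in the Inr-a duplication, with a ratio of 0.644. Abundant genes weigh most in this sum, such as betaTub85D (529 and 634 CPM in wild type, 449 and 327 CPM in the Inr-a duplication). The median ratio of the 23 single genes was 0.779. Both Inr-a duplication libraries were below wild type for 13 of them and above for 2, against 30.3% and 22.9% of all genes tested. Called genes numbered 0, against 2.23% of all genes tested. At an unadjusted p under 0.05, 9 were lower and 0 higher, against 8.61% and 12.2% of all genes tested. The median log2 fold change was −0.32, with 6 genes above 0 and 17 below, against 51.5% and 48.5% of all genes tested. Mst87F was the lowest, with 287 and 315 CPM in wild type and 172 and 135 CPM in the Inr-a duplication (log2 fold change −0.95, adjusted p = 0.0631). The next lowest were Mst84Db (log2 fold change −0.90, adjusted p = 0.0842) and Mst84Dc (−0.88, adjusted p = 0.0664). On the other side can, a gene needed for meiosis in the male germline, had 6.29, 5.31, 7.72 and 9.66 CPM (log2 fold change 0.57). The gene bol was also above wild type in both libraries, with 42.0, 35.4, 42.2 and 64.6 CPM (log2 fold change 0.47). The part of testis RNA in the lower values of the testis-restricted V-ATPase genes was not tested.

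**Figure D3:**
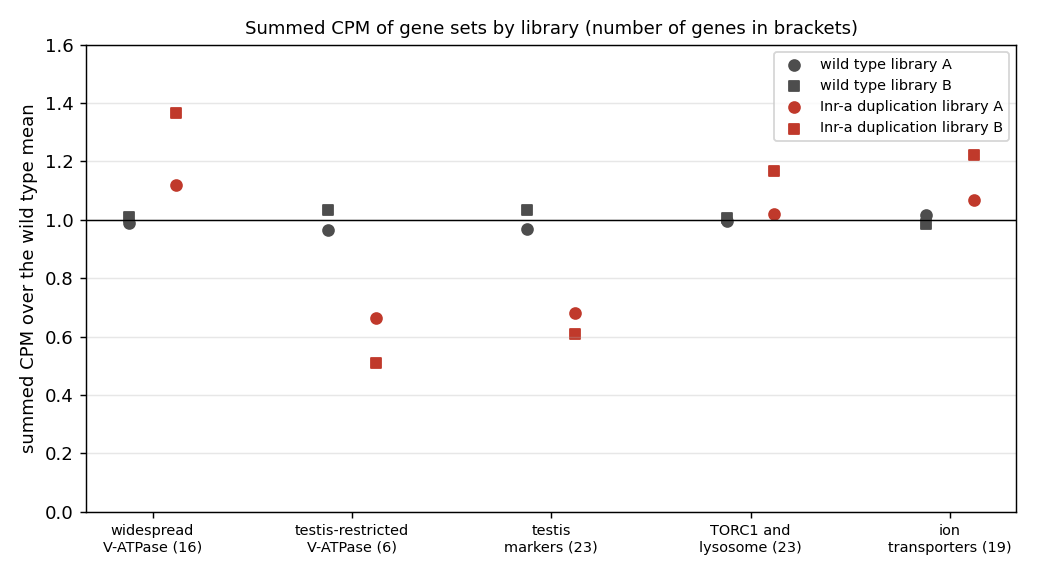
Summed CPM of 5 groups of genes in each library, divided by the wild type mean of that group; circles are library A, squares library B, grey wild type and red Inr-a duplication. Genes without library values are left out of the sums, and abundant genes weigh most in them. The testis-restricted V-ATPase genes stand at 0.664 and 0.510 in the Inr-a duplication and the testis genes at 0.680 and 0.608, while the widespread V-ATPase genes stand at 1.12 and 1.37.

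Paralogs were then compared within each library, which removes the library total from the comparison. For each subunit 1 widespread partner was taken. This was Vha68-2 for A, leaving out Vha68-1, and Vha100-2 for a, leaving out Vha100-1. The partners left out had lower ratios between genotypes (1.34 and 0.896) than those taken (1.90 and 1.28), so pairs with them would differ less. The ratio of Vha68-2 to Vha68-3 was 1.29 and 0.917 in wild type and 2.63 and 5.32 in the Inr-a duplication, that is, near parity of CPM in wild type and well above it in the Inr-a duplication. Vha100-2 over Vha100-3 gave 1.84 and 1.71 against 3.21 and 4.44. For VhaAC39-1 over VhaAC39-2 the values were 5.34 and 4.42 against 9.14 and 12.4. VhaPPA1-1 over VhaPPA1-2 gave 11.1 and 15.3 against 23.9 and 28.8. In these 4 pairs the Inr-a duplication libraries did not overlap wild type, with geometric mean ratios 3.44, 2.12, 2.19 and 2.01 times those of wild type. Each has a two-sided exact permutation p of 0.333, the smallest that this design allows. The pair Vha36-1 and Vha36-2 (29.6, 23.9, 35.3 and 27.2) and the pair Vha14-1 and Vha14-2 (18.4, 36.8, 32.6 and 19.2) overlapped, with exact p of 0.667 and 1. The numerator and the denominator contributed unequally among the 4 pairs, since Vha68-2 and VhaAC39-1 were higher in both Inr-a duplication libraries while VhaPPA1-1 overlapped.

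**Figure D4:**
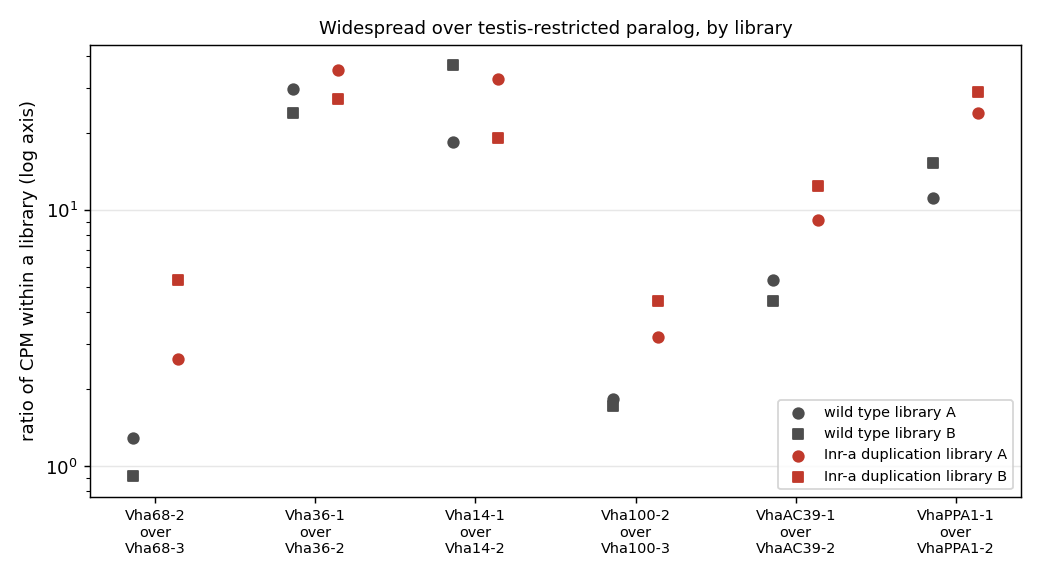
CPM of a widespread gene over that of its testis-restricted paralog in each library, on a log axis, for the 6 subunits that have such a pair. The Inr-a duplication libraries (red) lie above wild type (grey) for Vha68, Vha100, VhaAC39 and VhaPPA1, and both overlap for Vha36 and Vha14.

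The testis-restricted share of a subunit's CPM differed in the same way. For the a subunit it was 14.3% in wild type and 8.43% in the Inr-a duplication, for d 17.1% and 8.51%, and for c″ 7.13% and 3.68%. The share was small and nearly level for D (3.48% and 2.98%) and F (3.65% and 4.09%). The gene that led in wild type had a larger share in the Inr-a duplication for A, d (82.9% and 91.5%), c″ (92.9% and 96.3%) and c, where Vha16-1 gave 86.7% and 94.2%. For the a subunit the leading gene, Vha100-1, had a smaller share (39.9% and 34.6%), and the shares were nearly level for D (92.1% and 92.7%), F (96.3% and 95.9%) and e (80.3% and 80.2%). These shares are of CPM and are not corrected for the length of the transcripts.

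The members without a tissue group included small paralogs of the c, D and e subunits. Vha16-2 had 19.1 and 17.7 CPM in wild type and 12.3 and 9.16 CPM in the Inr-a duplication (ratio 0.584, log2 fold change −0.73, SE 0.29, adjusted p = 0.163). VhaM9.7-d (e) had 8.04 and 9.996 CPM against 4.08 and 5.82 CPM (ratio 0.549, adjusted p = 0.163). Both were clearly below wild type in each Inr-a duplication library. The other c subunit paralogs were lower in both libraries too, with ratios of 0.719 for Vha16-3, 0.637 for Vha16-4 and 0.792 for Vha16-5, and so was the D paralog Vha36-3 (0.789). VhaM9.7-a had 2.15, 4.87, 2.33 and 4.05 CPM and VhaM9.7-c had 15.6, 21.8, 20.0 and 23.6 CPM, both overlapping. In all, 2 of these 10 genes were above wild type in both Inr-a duplication libraries and 6 were below, against 22.9% and 30.3% of all genes tested. Their summed CPM was nearly level, between 176 and 183 in every library, as the higher values of Vha100-4 and Vha100-5 offset the lower ones of the c and e paralogs.

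Levels can be compared between genes only per length of transcript, so CPM was divided by the length of each transcript in kb. In wild type the order was led by Vha13 (G, 749.9 CPM per kb), Vha36-1 (D, 309), VhaPPA1-1 (c″, 249.8), Vha14-1 (F, 211) and VhaM9.7-b (e, 179.9). The highest 11 genes on this scale were all widespread, and the testis-restricted Vha68-3 came next with 58.1 CPM per kb, close to the 61.8 of Vha68-2. At the other end were Vha16-4 (6.51), VhaM9.7-a (5.41) and Vha100-4 (2.68). By subunit, in the order wild type then Inr-a duplication, the level per kb was 129 ± 3.70 and 162 ± 11.2 for A (SD, 2 libraries), 85.1 ± 15.4 and 130 ± 15.1 for B, 65.2 ± 9.63 and 112 ± 42.3 for E, and 749.9 ± 30.3 and 698.9 ± 2.15 for G. Within V0 it was 208 ± 17.7 and 270.2 ± 82.3 for c, 134 ± 22.97 and 139.6 ± 3.93 for a, and 288 ± 19.2 and 272 ± 4.73 for c″. Of the subunits given here, c and E thus had the widest spread between the Inr-a duplication libraries, with library B the higher.

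The genes differed in the length of their transcripts, and over all genes tested the difference between genotypes varied with that length. Among 7145 genes whose longest transcript exceeded 1500 bp, a limit chosen after the data were seen, both Inr-a duplication libraries were above wild type for 30% and below for 22.1%, with a median log2 fold change of 0.16. Among 4365 shorter genes the shares were 11.4% and 43.9%, with a median of −0.19. The widespread V-ATPase genes followed the same division. Of the 11 longer ones 10 were above wild type in both libraries, with Vha100-1 the exception, and their median log2 fold change was 0.65. Of the 5 shorter ones (Vha13, Vha14-1, Vha36-1, VhaPPA1-1 and VhaM9.7-b) none was above and 2 were below, with a median of −0.03. When the trend of each library with transcript length was subtracted, these medians were 0.54 and 0.14. The testis-restricted genes other than Vha14-2 lay below wild type at either length, and the medians of the group, Vha14-2 included, were −0.67 for the 3 longer and −0.61 for the 3 shorter genes, and −0.83 and −0.45 after the subtraction. Of the 8 shorter genes without a tissue group 6 were below wild type, and both longer ones, Vha100-4 and Vha100-5, were above. The part of transcript length in the results by tissue group was not tested beyond this subtraction.

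**Figure D5:**
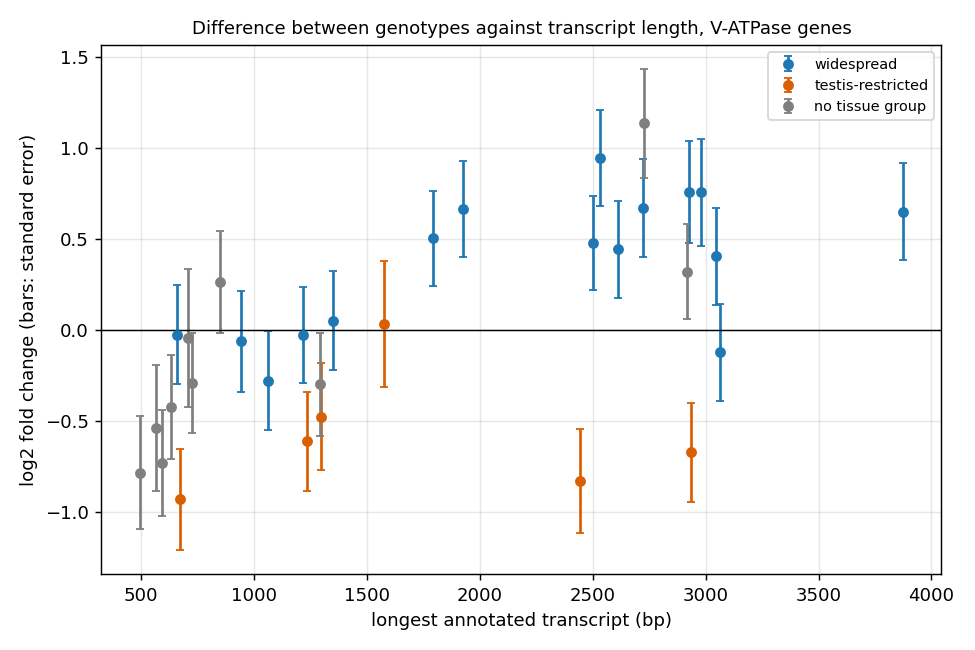
Log2 fold change (Inr-a duplication over wild type, with its standard error) of each V-ATPase gene against the length of its longest annotated transcript in bp, coloured by tissue group. Widespread genes of more than 1500 bp lie between −0.12 and 0.94, shorter ones between −0.28 and 0.05, and the testis-restricted genes Vha68-3 and Vha100-3 lie at −0.83 and −0.67 among the genes of more than 1500 bp.

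The 32 genes had 72 transcripts in the deposited data, of which 12 were at 0 in every library and 58 could be tested. None was called in a fit over transcripts, where the lowest adjusted p of a member was 0.348. At an unadjusted p under 0.05, 7 transcripts had higher and 4 had lower values, against 6.71% and 4.63% of the 20111 transcripts tested. Most of the difference in Vha68-2 lay in FBtr0080418, which had 151 and 123 CPM in wild type and 242 and 313 CPM in the Inr-a duplication and made up 89.0% and 95.2% of the gene. The other abundant transcript of the gene, FBtr0336614, had 11.1, 22.6, 13.2 and 12.9 CPM, overlapping. Vha44 had a pair of main transcripts. The longer one, FBtr0087175, had 35.3 and 45.6 CPM in wild type and 56.1 and 94.1 CPM in the Inr-a duplication (ratio 1.86), and FBtr0087173 had 31.6 and 40.6 against 43.9 and 46.1 CPM (ratio 1.25). For Vha16-1 the main transcript FBtr0086150 had 206 and 242 CPM against 292 and 547 CPM, while FBtr0086153 had 19.2, 23.9, 21.4 and 24.0 CPM. In Vha100-5 both transcripts lay in opposite order. FBtr0080255 had 61.3 and 37.0 CPM in wild type and 74.2 and 71.6 CPM in the Inr-a duplication, and FBtr0335471 had 20.1 and 24.2 against 11.4 and 15.5 CPM, so that its share of the gene was 31.1% in wild type and 15.6% in the Inr-a duplication. Transcript values rest on how the quantification divides reads between similar isoforms.

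Besides the Vha68 genes, 3 other pairs of members lay within a few kb of each other. Vha16-3 and Vha16-2 (3L, 985 bp apart) both had negative log2 fold changes, −0.43 and −0.73. VhaPPA1-2 and VhaPPA1-1 (3R, 2052 bp apart) had −0.93 and 0.05, and Vha100-4 and Vha100-2 (3R, 517 bp apart) had 1.13 and 0.40. Close neighbours thus had values of opposite sign in Vha68-2 and Vha68-3 and in the VhaPPA1 pair, and of like sign in the Vha16 and Vha100 pairs. The members on chromosome 2R, where Pcf11 lies at 14860936 to 14871071, were 8 in number. Of these, 3 were above (22.9% of all genes tested) and 4 below wild type (30.3%) in both libraries. The nearest, Vha36-1, lay 670363 bp from Pcf11 and was lower in both Inr-a duplication libraries. The annotation places another gene over 10 of the members, in 9 cases on the opposite strand, as for Vha44 with Hmgs and Vha100-4 with cona. The sources used here do not say whether strand was used in counting, so reads of such partners may not be told apart.

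Proteins of the pump whose genes carry another symbol were looked at as well. ATP6AP2, an accessory subunit of V0 formerly called VhaM8.9, had 230 and 212 CPM in wild type and 222 and 235 CPM in the Inr-a duplication (log2 fold change 0.08, adjusted p = 0.895). CG31030, an Ac45-related gene, had 23.4, 22.4, 20.9 and 18.3 CPM (log2 fold change −0.19, adjusted p = 0.720). Neither passed the threshold.

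Of 28 genes of TORC1 signalling and the lysosome, 26 were matched, 3 were without library values and 23 were tested. None was called in either direction, against 2.23% of all genes tested. An unadjusted p under 0.05 was found for 2 genes, both with higher values, against 12.2% higher and 8.61% lower of all genes tested. The median log2 fold change was 0.05, with 14 genes above 0 and 9 below, against 51.5% and 48.5% of all genes tested. The difference with the largest size was that of Mitf, a transcription factor that drives lysosomal and V-ATPase genes in flies. It had counts of 170 and 160 in wild type and 282 and 439 in the Inr-a duplication (log2 fold change 0.80, SE 0.29, adjusted p = 0.130). LManII, a lysosomal mannosidase, had 209 and 142 CPM in wild type and 271 and 286 CPM in the Inr-a duplication (log2 fold change 0.72, adjusted p = 0.149). Rbcn-3B, part of a complex that helps V1 and V0 assemble, had 21.1, 12.4, 19.4 and 28.3 CPM, which overlapped (log2 fold change 0.55, adjusted p = 0.286). The log2 fold changes of the list ran from −0.44 to 0.80.

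Ion transporters that work beside the pump in epithelia formed a list of 19 genes, all of them tested. Of these 1 was called, against 2.23% of all genes tested. Atpalpha, the catalytic subunit of the sodium-potassium pump, rose from 92.5 and 76.3 CPM in wild type to 138 and 192 CPM in the Inr-a duplication (log2 fold change 0.98, SE 0.26, adjusted p = 0.0491). The call did not hold without wild type library B (adjusted p = 0.286) or without Inr-a duplication library B (0.291), and the log2 fold change was 0.61 (adjusted p = 0.172) with the length trend subtracted. At an unadjusted p under 0.05, 6 genes were higher and 0 lower, against 12.2% and 8.61% of all genes tested. A log2 fold change above 0 was found for 15 of the 19, against 51.5% of all genes tested, and the median was 0.42. Of 5 Malpighian tubule markers 4 could be tested and none was called. The difference of largest size was that of Oatp58Db, an organic anion transporter, with 36.2 and 21.4 CPM in wild type and 13.4 and 16.9 CPM in the Inr-a duplication, lower in both libraries (log2 fold change −0.84, adjusted p = 0.119). Uro, a urate oxidase, had 37.8, 25.8, 27.8 and 62.3 CPM, overlapping (log2 fold change 0.44), and Oatp58Dc had a log2 fold change of −0.28. Of 7 midgut markers 3 had no library values and 4 were tested. The trypsin gene betaTry was called among these, with 193 and 270 CPM in wild type and 872 and 740 CPM in the Inr-a duplication (log2 fold change 1.84, adjusted p = 0.000407), while alphaTry had 527, 727, 895 and 522 CPM and overlapped. Amy-p lay the other way, with 691, 254, 365 and 363 CPM, overlapping (log2 fold change −0.17). The low-abundance marker lab had 1.35, 0.619, 1.36 and 1.63 CPM (log2 fold change 0.49). The 3 midgut markers without library values all had higher deposited means in the Inr-a duplication, with ratios of 1.58 for Jon65Aiii, 1.37 for Jon65Aiv and 1.72 for Jon99Ciii. None of the 4 neuronal markers was called, and each overlapped between genotypes in CPM. After TMM scaling 1 of them was above wild type in both libraries, against 27% of all genes tested. The largest difference among them was that of nSyb, with 6.61, 3.98, 5.84 and 11.9 CPM (log2 fold change 0.68, adjusted p = 0.260). The log2 fold change was 0.59 for elav, 0.12 for Syt1 and −0.40 for brp. The 5 fat body and 5 salivary gland markers were all among the abundant genes without library values. Their deposited means gave ratios from 0.731 (Fbp1) to 3.16 (Lsp1alpha) in fat body and from 0.856 (Sgs8) to 2.05 (Sgs4) in salivary gland. These genes are under hormonal control late in the larval stage, and the part of tissue makeup or stage in the V-ATPase values was not tested.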

How the data were processed

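Whole third-instar larvae were used, with 4 libraries in all. Per the labels and the methods, transcripts were quantified by the authors with Salmon 1.4.0 against Ensembl BDGP6 after trimming with Trimmomatic and imported with tximport. The deposited values for 30090 transcripts are 1 mean CPM per genotype over its 2 libraries, plus a ratio of the means that was not used. Per-library counts were recovered as the whole numbers that give each deposited mean at the library totals. Exactly 1 pair was found for 99.45% (wild type) and 99.73% (Inr-a duplication) of the transcripts above 0, several pairs for 131 and 66, and none for 0. Counts were summed per symbol, and genes with a transcript of several pairs (128) were left out of library values and tests. Recovery and test were checked on simulated data. Positions and lengths come from Ensembl release 115 (BDGP6.54), which holds 29964 of the transcripts.

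A gene was kept if at least 2 libraries reached the CPM that 10 counts give at the median depth, and if it had 15 counts in all. The test was limma 3.58.1 (trend, two-sided, R 4.3.3) on log2(TMM-scaled CPM + 0.5), with Benjamini-Hochberg adjustment over 11540 genes and a threshold of 0.05. A fold change on this scale understates that of low genes. TMM factors were 1.01 and 1.01 (wild type) and 0.942 and 1.04 (Inr-a duplication). CPM cannot show a change in total RNA. Trends with transcript length were fitted by lowess in statsmodels 0.14.6 (span 0.3). Tables and exact permutation tests were made in Python 3.11.15 with pandas 2.3.3 and numpy 2.4.6, and plots with matplotlib 3.10.9. Every member is named. Of the TORC1 and lysosome list and of the ion transporter list, the genes past the threshold are named, or else the 3 largest in absolute log2 fold change. CtsL1, CtsB and CtsF, which had no library values, are named as well. The tissue markers that are named were chosen after their values were seen. The members, tissue groups and lists were chosen with earlier results of these data known. Alternatives were another scaling, pseudocount, filter, length correction, test on transcripts and leaving out each library, and voom, which was added after seeing the data. Of the TORC1 and lysosome list, Trpml and CtsD were not analysed here.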

Additional observations from a re-analysis of the deposited data

How the results depend on the processing

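The number of genes called over all genes was 257, and it was 76 with library size alone, 59 without a filter and 0 in the fit over transcripts, while leaving out a library gave between 139 and 1074. The 1 called V-ATPase gene, Vha100-4, was not called with library size alone (adjusted p = 0.121), without a filter (0.203), with the length trend subtracted (0.0648), with voom (0.0540) or in the fit over transcripts, so the number of members called was 0 in each of these, and between 0 and 6 when a library was left out. Its log2 fold change stayed between 0.90 and 1.35 without each library. The median log2 fold change of the widespread genes was 0.46, against 0.35 with the length trend subtracted, 0.37 in the fit over transcripts, and 0.37 to 0.53 without each library. That of the testis-restricted genes was between −0.83 and −0.45 without each library. Signs turned for members near 0. With the length trend subtracted, Vha14-1 had 0.19, Vha13 0.14, VhaM9.7-a 0.17 and VhaM9.7-b 0.14. Leaving out a library gave −0.33 to 0.27 for Vha14-1, −0.41 to 0.45 for Vha14-2, −0.16 to 0.0080 for Vha13, −0.31 to 0.0435 for Vha100-1, −0.0452 to 0.13 for VhaPPA1-1, −0.55 to 0.45 for VhaM9.7-a, −0.23 to 0.17 for VhaM9.7-b and −0.0686 to 0.9226 for the marker Uro. Atpalpha was not called with library size alone, a pseudocount of 0.1, no filter, the length trend subtracted or voom (adjusted p from 0.0559 to 0.172), and betaTry was called in all of these. With the length trend subtracted, the log2 fold change was 0.50 for Mitf, 0.48 for LManII and 0.14 for Rbcn-3B. The causes were not tested. No paired analysis was possible because the deposited columns carry no replicate numbers. The planned edgeR test was not run, since the deposited unit is mean CPM. The depth limits Vha16-4, Vha14-2 and VhaM9.7-a most, with 27 to 108 counts in a library.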
